A study of Mus musculus with 18 samples.

Results

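The PEA3 factors are the 3 closely related ETS transcription factors Etv1, Etv4 and Etv5, and they were taken by symbol from the 20655 gene rows of a table of coding-sequence read counts. Each symbol matched 1 row, so the account covers 3 of 20655 genes, in 9 ribosome footprint libraries and 9 RNA libraries.

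ETS factors share a winged helix-turn-helix domain that binds DNA at a GGAA core. The PEA3 subfamily is a known output of receptor tyrosine kinase and RAS signalling: ERK relieves repression of Etv4 and Etv5 by the high-mobility-group repressor Capicua (CIC) and also phosphorylates the factors, while the COP1 ubiquitin ligase marks them for degradation. They are best known for transmitting FGF signals during the branching of lung, kidney and mammary epithelium, and as drivers of invasion in several carcinomas.

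The cells were epidermal basal cells of mouse embryos, per the labels, taken at E18.5; an shRNA had been injected in utero at E9.5. Epidermis was parted from dermis with dispase and dissociated with trypsin in the presence of cycloheximide, which holds ribosomes in place. There were 3 groups with 3 libraries of each kind. WT shScram received a scrambled shRNA and was of a strain that carries the reporter allele Gt(ROSA)26Sortm4(ACTB-tdTomato,-EGFP)Luo, which makes a membrane tdTomato or EGFP. HrasG12V shScram received the scrambled shRNA and HrasG12V shEif2b5 an shRNA that targets Eif2b5, the catalytic subunit of the translation initiation factor eIF2B. Both were of strain FR-HrasG12V, which carries a constitutively active form of the RAS protein. All groups therefore received an shRNA, strain and genotype cannot be told apart, and no WT group received shEif2b5. The driver of Hras activation was not given in the sources used here, and the genotype of WT shScram footprint library 1 is labelled Rosa26 in place of WT.

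Footprint libraries held 3319175 to 4933298 coding-sequence counts and RNA libraries 1771365 to 5505386. Eif2b5, the targeted gene, measured 82.5, 78.4 and 95.3 footprint CPM (counts as a share of the library's TMM-scaled total) in the libraries labelled HrasG12V shEif2b5 against 91.7, 93.0 and 102 in HrasG12V shScram. In RNA it measured 134, 128 and 143 CPM against 126, 387 and 144. HrasG12V shScram RNA library 2, the smallest RNA library at 1771365 counts, thus stood apart. Neither difference passed the test, and the direction of any shEif2b5 effect below rests on the labels. HrasG12V shScram RNA libraries 1 and 3 thus lay near the shEif2b5 level of Eif2b5. Fits without both (library 2 is then alone and assumed to vary like the other groups) and without library 2 are given where they change a call. Hras was not called between HrasG12V shScram and WT shScram in footprints (log2 fold change 0.04 ± 0.15, SE, edgeR adjusted p = 0.95), although the table does not separate the mutant from the normal allele. Of the marker lists, basal keratinocyte genes (8 of 8 measured, Krt5 and Krt14 among them) summed to 8684 to 17243 CPM over all libraries. Spinous genes summed to 21896 to 98283 CPM, more than the basal sum in every library. Basal RNA sums were 12814 to 17243 CPM in WT shScram, 8684 to 11997 in HrasG12V shScram and 13423 to 15613 in HrasG12V shEif2b5. In footprints, the basal sums were 8933 to 13205, 10404 to 14657 and 13751 to 15802 CPM in the same order. Spinous RNA sums were 65233 to 98283 CPM in WT shScram and 34320 to 62770 in HrasG12V shScram. HrasG12V shEif2b5 lay inside the latter range. Spinous footprint sums overlapped. The part of these cells in the PEA3 differences was not tested. Immune markers summed to at most 32.0 CPM and endothelial markers to at most 17.8 CPM. Dermal fibroblast markers were not near 0, at 1155 to 2461 footprint CPM and 358 to 2115 RNA CPM. WT shScram library 1 had the highest fibroblast sum in both kinds, and the part of such cells in the PEA3 differences was not tested. In such bulk libraries, more cells that express a gene and more RNA per cell cannot be told apart, nor can fewer cells and less RNA.

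Sequence shared with other loci limits how well short reads can be given to each gene. In mm10, Etv1 (ENSMUSG00000004151.17) lies on chromosome 12 from 38779380 to 38870484 on the plus strand, Etv4 (ENSMUSG00000017724.14) on chromosome 11 from 101769742 to 101785371 on the minus strand, and Etv5 (ENSMUSG00000013089.15) on chromosome 16 from 22381309 to 22439719 on the minus strand. Their merged coding exons span 1585, 1458 and 1584 bases, and no other annotated gene overlaps any of them. The longest identical stretches of coding sequence between members show how far the paralogs can be confused, and both of the longest are 23 bases:

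Etv1 and Etv5: tacaaatttgtgtgtgacccgga

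Etv4 and Etv5: ggcatcatgcagaaggtggctgg

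Etv1 and Etv4 shared at most 18 bases, so a read of 28 bases, about the length of a footprint, could not match 2 members perfectly. Processed pseudogenes were another matter. Of the 28-base windows of Etv1 coding sequence, 1259 of 1657 (76.0%) also occurred in Gm5454 on chromosome 13, and 807 of 1584 windows of Etv5 (50.9%) occurred in Gm4798 on chromosome 10. None of the 1481 windows of Etv4 occurred in another gene. Neither pseudogene had a row in the table, and how reads with several alignments were treated was not given in the sources used here. The levels of Etv1 and Etv5 are therefore uncertain, and could be understated if such reads were dropped, whereas a comparison of 1 gene between conditions uses the same windows in every library of a kind.

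Promoter sequence was available from RefSeq (GRCm38.p6) for 2 starts of Etv1 and 2 of Etv5, and the 250 bases before the start that held no annotated exon are shown for each. The Etv5 sequence is shown because it carries 3 copies of TGAATGGG, a form of the CIC octamer, marked in capitals, and the Etv1 sequence because it carries none:

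Etv5 at chr16:22438369-22438618, minus strand: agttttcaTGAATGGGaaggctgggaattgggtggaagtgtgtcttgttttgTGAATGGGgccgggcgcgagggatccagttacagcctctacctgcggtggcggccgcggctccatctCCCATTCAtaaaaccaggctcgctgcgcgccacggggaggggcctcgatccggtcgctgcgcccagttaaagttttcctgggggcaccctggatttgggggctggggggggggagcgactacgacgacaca

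Etv1 at chr12:38779832-38780081, plus strand: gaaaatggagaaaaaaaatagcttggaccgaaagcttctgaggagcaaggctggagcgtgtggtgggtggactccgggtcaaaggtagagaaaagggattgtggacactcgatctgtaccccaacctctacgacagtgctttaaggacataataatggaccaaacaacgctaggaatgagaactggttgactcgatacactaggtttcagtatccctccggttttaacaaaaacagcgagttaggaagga

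The copies in Etv5 begin at -242, -198 and -131 from the start, the last on the opposite strand, where it reads CCCATTCA. All 8 forms of the octamer were searched on both strands (TGAATGAA, TGAATGAG, TGAATGGA, TGAATGGG, TCAATGAA, TCAATGAG, TCAATGGA and TCAATGGG). In windows of 300 bases (250 before to 50 after a start), 7.02% of 32851 mouse promoters held any of them, and 26 promoters (0.0791%) held 3 or more. The bases before the other Etv5 start (chr16:22439571-22439820, minus strand), which overlap annotated exons, held no form of the octamer. The printed Etv5 sequence lies inside the annotated gene. The PEA3 motif AGGAAGT occurred at +1 of the Etv5 window with the 3 copies and at -4 of the Etv1 window, and 9.35% of promoters held it. In Etv1 it ran past the printed bases. Neither window held CCGGAAGT (3.89% of promoters) or the AP-1 motif TGACTCA or TGAGTCA (5.20%). A motif match describes the sequence only, and no binding was measured.

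Etv4 footprints rose in HrasG12V epidermis. Etv4 measured 18.4 and 18.8 CPM in WT shScram libraries 1 and 2 and lay between them in library 3, with 81.7, 58.9 and 64.4 in HrasG12V shScram, and 66.9, 47.9 and 50.9 in HrasG12V shEif2b5. Every HrasG12V library, with either shRNA, lay above every WT library, and the WT libraries had an SD of 0.213 CPM. Etv5 footprints measured 44.5, 43.9 and 36.0 CPM in WT shScram, 121, 86.4 and 113 in HrasG12V shScram, and 96.0, 79.3 and 94.4 in HrasG12V shEif2b5. Again no WT library reached the lowest HrasG12V library, and the 2 HrasG12V groups overlapped. Etv1 was near the floor of the assay. It had 12, 10 and 9 footprint counts in WT shScram (3.34, 2.26 and 2.25 CPM), 16, 16 and 13 in HrasG12V shScram (3.56, 4.36 and 2.91 CPM) and 19, 8 and 9 in HrasG12V shEif2b5 (3.82, 1.78 and 2.00 CPM), and all 3 groups overlapped.

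**Figure D1:**
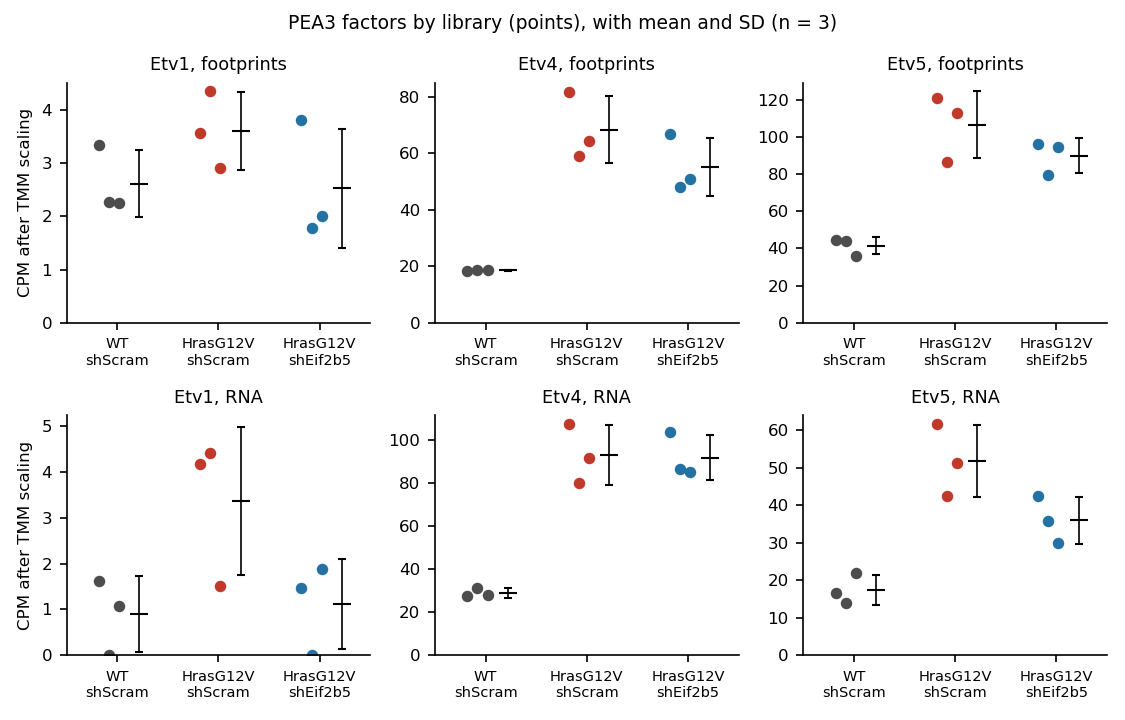
Level of each PEA3 factor in CPM after TMM scaling, with footprints above and RNA below. Points are the 3 libraries of a group (1 to 3 from left to right), and the bar beside them is their mean with SD; for Etv4 and Etv5 both HrasG12V groups lie above WT in both library kinds, while Etv1 stays below 5 CPM.

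In footprints, 2 of the 3 members were called higher in HrasG12V shScram than in WT shScram (edgeR, adjusted p under 0.05), where 1.7% of 11448 tested genes were called, 1.23% higher and 0.472% lower. The fitted fold was 3.68 for Etv4 (95% interval 2.88 to 4.72) and 2.57 for Etv5 (2.08 to 3.19). The log2 fold changes were 1.88 ± 0.17 for Etv4 (SE, edgeR adjusted p = 3.35e-06) and 1.36 ± 0.15 for Etv5 (adjusted p = 3.49e-05). Etv1 had 0.46 ± 0.43 (edgeR adjusted p = 0.69), and its interval, 0.741-fold to 2.56-fold, included no change and ended just below the fitted fold of Etv5. HrasG12V shScram lay above WT with no overlap for 10.4% of tested genes, and HrasG12V shEif2b5 did so for 8.35%.

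RNA gave the same order of groups for Etv4 against WT. Etv4 RNA measured 27.4, 31.4 and 27.8 CPM in WT shScram, 108, 80.2 and 91.8 in HrasG12V shScram, and 104, 86.6 and 85.2 in HrasG12V shEif2b5. The 2 HrasG12V groups covered nearly the same range, and WT lay far below both. Etv5 RNA measured 16.5, 13.9 and 21.8 CPM in WT shScram, 61.6, 42.6 and 51.4 in HrasG12V shScram, and 42.4, 35.7 and 30.0 in HrasG12V shEif2b5. For Etv5 the shEif2b5 libraries lay between the other groups, with no library of one group inside the range of another, although 42.4 and 42.6 CPM left hardly a gap. In RNA, HrasG12V shScram lay above WT for 13.7% of tested genes, HrasG12V shEif2b5 lay above WT for 7.67%, and shEif2b5 lay below the scrambled shRNA for 15.2%.

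Against WT shScram, 2 of 2 tested members were called in HrasG12V shScram RNA, where 7.7% of 11096 genes were called and 4.65% were called higher. Etv4 rose by 1.70 ± 0.16 on the log2 scale (SE, edgeR adjusted p = 7.56e-05) and Etv5 by 1.55 ± 0.21 (2.93-fold, adjusted p = 0.000576). Without HrasG12V shScram RNA libraries 1 and 3, Etv4 kept its call, and Etv5 had 1.25 with an edgeR adjusted p of 0.0602. Etv1 had 4, 0 and 6 RNA counts in WT shScram, 22, 8 and 7 in HrasG12V shScram and 4, 0 and 4 in HrasG12V shEif2b5, too few to pass the filter on low counts. As CPM, the highest WT library (1.61) overlapped the lowest HrasG12V shScram library. Melanocyte markers moved in the same direction as Etv4 and Etv5 in RNA, with 424 to 607 CPM summed over 8 of 8 markers in WT shScram, 644 to 786 in HrasG12V shScram and 501 to 633 in HrasG12V shEif2b5. In footprints those sums were 1289 to 1535, 1478 to 1740 and 1506 to 1710 CPM, and their part in the PEA3 differences was not tested. With no filter, the Etv1 RNA difference was 1.76 ± 0.74 (edgeR adjusted p = 0.148).

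Under the Eif2b5 shRNA, Etv4 and Etv5 footprints were called above WT. In HrasG12V shEif2b5 against WT shScram footprints, Etv4 rose 2.98-fold (log2 1.57 ± 0.17, edgeR adjusted p = 4.88e-05) and Etv5 rose 2.17-fold (1.12 ± 0.15, adjusted p = 0.000611), 2 of 3 members, where 0.97% of genes were called and 0.76% called higher. Etv1 had -0.02 ± 0.44 (adjusted p = 0.989). In RNA, 1 of 2 tested members was called, where 0.324% of genes were called and 0.225% higher. Etv4 RNA rose 3.20-fold (1.68 ± 0.17, edgeR adjusted p = 3.74e-05), and Etv5 RNA had a 2.02-fold difference that missed the threshold (1.01 ± 0.22, adjusted p = 0.0583). Etv5 passed it with DESeq2 (adjusted p = 0.0116), with no filter (0.00603) and when only the 2 conditions were fitted (0.0154). Without HrasG12V shScram RNA libraries 1 and 3 the Etv5 difference was 1.02. Etv5 RNA was not called in 6 of 10 alternatives, nor with any 1 library left out (edgeR adjusted p 0.0521 to 0.289).

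Between the shRNAs in HrasG12V epidermis, no member passed the test in footprints, where edgeR called 0 of 11448 genes (0%), 519 had an unadjusted p under 0.05, and DESeq2 called 1. The fitted differences were all below 0. Etv4 had -0.31 (0.647-fold to 1.01-fold), Etv5 -0.25 (0.687-fold to 1.03-fold) and Etv1 -0.48 (0.391-fold to 1.31-fold). In RNA, 13% of genes were called in this comparison and neither tested member was. Etv4 had -0.03 ± 0.15 (edgeR adjusted p = 0.917, 0.783-fold to 1.23-fold), and Etv5 had -0.54 ± 0.20 (adjusted p = 0.0791, 0.515-fold to 0.921-fold). Without HrasG12V shScram RNA library 2 Etv5 was called (-0.64, adjusted p = 0.0198), and without libraries 1 and 3 it had -0.23 (adjusted p = 0.799).

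**Figure D2:**
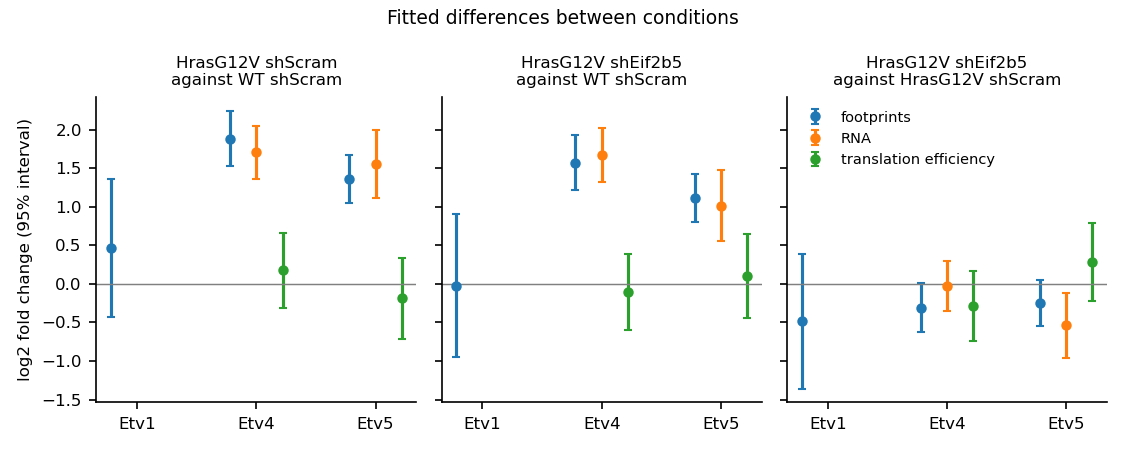
Fitted log2 fold changes with 95% intervals for each comparison, coloured by library kind; translation efficiency is the footprint difference minus the RNA difference. Etv4 and Etv5 lie above 0 in both comparisons with WT, and the translation efficiency intervals all include 0; Etv1 was tested in footprints only.

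No translation efficiency difference of Etv4 or Etv5 passed the test. Translation efficiency here is the footprint change over the RNA change, tested as an interaction term in 1 edgeR model of the 18 libraries. Against WT shScram, HrasG12V shScram gave 0.18 for Etv4 (0.807-fold to 1.58-fold) and -0.19 for Etv5 (0.61-fold to 1.27-fold), where 1.17% of 10793 genes were called. With the Eif2b5 shRNA against the scrambled shRNA the values were -0.29 for Etv4 and 0.29 for Etv5, where 2.11% were called. HrasG12V shEif2b5 against WT shScram gave -0.11 and 0.10, where edgeR called 0 genes (0%) and 634 had an unadjusted p under 0.05. The edgeR adjusted p of either member was at least 0.499 in all 3 comparisons.

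The clearest difference between the members was in how footprints and RNA were divided among them. Within each library the ratio of Etv4 to Etv5 counts needs no scaling between libraries. In footprints its log2 was -1.27, -1.22 and -0.96 in WT shScram, -0.56, -0.55 and -0.81 in HrasG12V shScram, and -0.52, -0.73 and -0.89 in HrasG12V shEif2b5. In RNA it was 0.72, 1.16 and 0.35 in WT shScram, 0.80, 0.91 and 0.84 in HrasG12V shScram, and 1.29, 1.27 and 1.50 in HrasG12V shEif2b5. Etv5 counts thus exceeded Etv4 counts in all 9 footprint libraries, and Etv4 exceeded Etv5 in all 9 RNA libraries. The ratio was lower in footprints by 1.82 on average on the log2 scale, so Etv5 had 3.52-fold more footprints per RNA count than Etv4. An exact two-sided permutation of library kind within each condition (8000 arrangements) gave p = 0.00025, the smallest it can give, and 0.00075 adjusted over the 3 pairs of members. With the kind swapped only between libraries of the same replicate number (512 arrangements), the ratio was lower in footprints in 9 of 9 pairs (exact permutation p = 0.00391, again the smallest possible, and 0.00586 adjusted over the 3 pairs of members). Both tests were added after the values had been seen. With the kinds already seen to separate completely, both had to give their smallest p, and no conclusion is drawn from them. Whether other pairs of genes differ as much between kinds was not tested. The difference for Etv4 and Etv5 lay between -1.88 and -1.75 with each library left out in turn. Etv4 differed from Etv1 by -1.82 on average (exact permutation p = 0.001, 0.0015 adjusted, and 0.00391 within replicate numbers). By condition this was -2.49 in WT shScram, -0.66 in HrasG12V shScram and -2.30 in HrasG12V shEif2b5, where Etv1 RNA counts totalled 10, 37 and 8. No difference between Etv5 and Etv1 passed the same test (exact permutation p = 1). Etv1 had 0 RNA counts in 2 libraries, which makes its ratios uncertain.

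**Figure D3:**
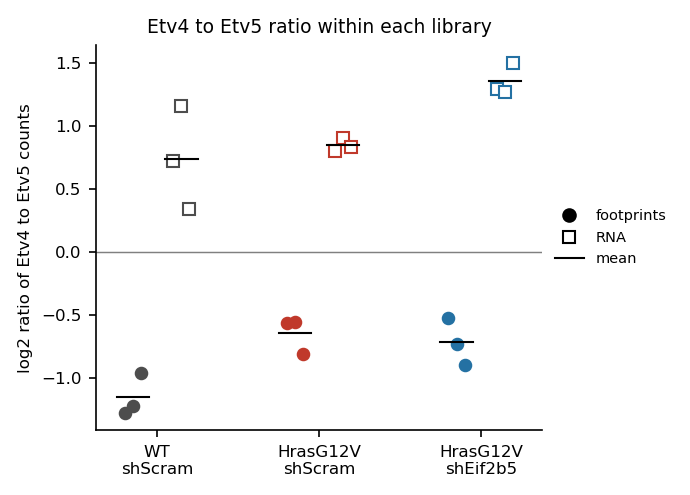
Log2 of the ratio of Etv4 to Etv5 counts within each library, with filled circles for footprints, open squares for RNA and a line at the mean of each group. All 9 footprint libraries lie below 0 (more Etv5 than Etv4) and all 9 RNA libraries above 0.

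Against the median gene of the 10793 tested in both kinds, Etv5 had 2.39, 2.11 and 2.49 times the footprints per RNA (WT shScram first, then the HrasG12V groups with the scrambled and the Eif2b5 shRNA), at percentiles 85.9, 85.7 and 86.1. Etv4 had 0.647, 0.751 and 0.601 times, at percentiles 31.0, 35.6 and 28.9. Their places thus stayed on opposite sides of the median in every condition. The annotated leaders differ by transcript. Etv4-201 has 315 bases of 5′ untranslated region with 3 upstream ATGs, and Etv4-212 has 254 bases with 2. Etv5-201 has 281 bases with 3, Etv5-203 has 32 bases with none and Etv5-204, whose annotated coding part is short, has 206 bases with 5, while 53.3% of 20362 coding genes have an upstream ATG in the transcript with the longest coding sequence. Which transcripts the cells used was not tested, nor was whether reads shared with Gm4798 were counted alike in both kinds, whose read lengths were not given in the sources used here.

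Whether Etv4 and Etv5 changed by different amounts was tested on their ratio by exact permutation, which with 3 libraries a group cannot give a p below 0.1 whatever the values. The log2 ratio of Etv4 to Etv5 footprints was 0.51 higher in HrasG12V shScram than in WT shScram, with no overlap and SDs of 0.14 and 0.17, and the two-sided exact permutation p was 0.1 (0.225 adjusted over 18 ratio comparisons). In RNA the same difference was 0.11 (exact permutation p = 0.7). With shEif2b5 the RNA ratio was 0.51 higher than with the scrambled shRNA, again with no overlap (SDs of 0.13 and 0.05, exact permutation p = 0.1), while the footprint ratio differed by -0.07 (p = 0.7).

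Placed among the 26 ETS genes of the table by mean CPM per kilobase of coding sequence, the members changed rank between conditions. In WT shScram footprints Etv5 was 8th at 26.2 ± 3.0, Etv4 12th at 12.7 ± 0.146 and Etv1 20th at 1.65 ± 0.394 CPM per kb (SD, n = 3). The mean ± SD range of Etv5 overlapped that of Elk4 (23.8 ± 3.37), the next in order, and that of Etv1 overlapped Elf5 (1.71 ± 0.645), while Etv4 stood apart from Elf4 (13.8 ± 0.753) and Ehf (8.82 ± 2.52). In HrasG12V shScram footprints Etv5 was 3rd at 67.3 ± 11.3, behind Ets2 (186 ± 11.3) and Gabpa (101 ± 7.85). Etv4 was 5th at 46.9 ± 8.15, between Elf1 (56.1 ± 1.52) and Erf (41.8 ± 2.87). Its range overlapped both of these neighbours, and that of Etv5 overlapped Elf1. With shEif2b5 Etv5 stayed 3rd at 56.7 ± 5.82, within the spread of Elf1 (55.7 ± 6.52), and Etv4 was 7th at 37.9 ± 7.01, within the spread of Etv3 (40.7 ± 5.93). Per kb of all coding bases, the order of Etv4 and Etv5 was turned in RNA: Etv4 was 9th and Etv5 12th in WT shScram (19.8 and 11.0 CPM per kb), and 3rd and 10th in both HrasG12V groups. Etv4 held 64.0 ± 9.46 RNA CPM per kb in HrasG12V shScram and 63.1 ± 7.21 in HrasG12V shEif2b5, and Etv5 held 32.8 ± 6.02 and 22.8 ± 3.94. The range of Etv4 overlapped those of Erf (79.8 ± 22.4) and Elk4 (57.0 ± 14.2) with the scrambled shRNA and of Etv3 (61.7 ± 6.50) with shEif2b5, and that of Etv5 overlapped Gabpa (38.9 ± 6.64) and Elf1 (27.5 ± 4.92) in turn. The order of Etv4 and Etv5 in RNA depends on how reads shared with Gm4798 were counted. Per kb of bases outside the pseudogene-like windows, Etv5 measured 22.4 ± 5.16 and Etv4 19.5 ± 1.48 RNA CPM in WT shScram, 66.8 ± 12.3 and 63.0 ± 9.31 in HrasG12V shScram, and 46.4 ± 8.04 and 62.1 ± 7.10 in HrasG12V shEif2b5, so that Etv4 was the lower by mean in the first 2 groups, within the spread. Etv1 stayed between 17th and 21st in every group and kind.

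As a share of the summed CPM per kb of the 3 factors, Etv5 made up 64.4 ± 2.37% of footprints in WT shScram, 57.7 ± 2.62% in HrasG12V shScram and 59.2 ± 3.31% in HrasG12V shEif2b5 (SD, n = 3). Etv4 made up 31.5 ± 2.62%, 40.2 ± 2.20% and 39.2 ± 2.85% in the same order. In RNA, Etv4 was the larger part, at 63.3 ± 7.13%, 64.8 ± 0.697% and 73.0 ± 1.26%. If only bases outside the pseudogene-like windows had been countable, Etv5 would hold 73.6 ± 1.81% of WT shScram footprints, and Etv4 17.4 ± 1.79%. In RNA the larger part would then be Etv5 in WT shScram (50.4 ± 5.63% against 44.7 ± 8.43% for Etv4) and in HrasG12V shScram (48.2 ± 2.31% against 45.6 ± 1.22%), and Etv4 in HrasG12V shEif2b5 (55.9 ± 1.22% against 41.6 ± 2.98%).

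**Figure D4:**
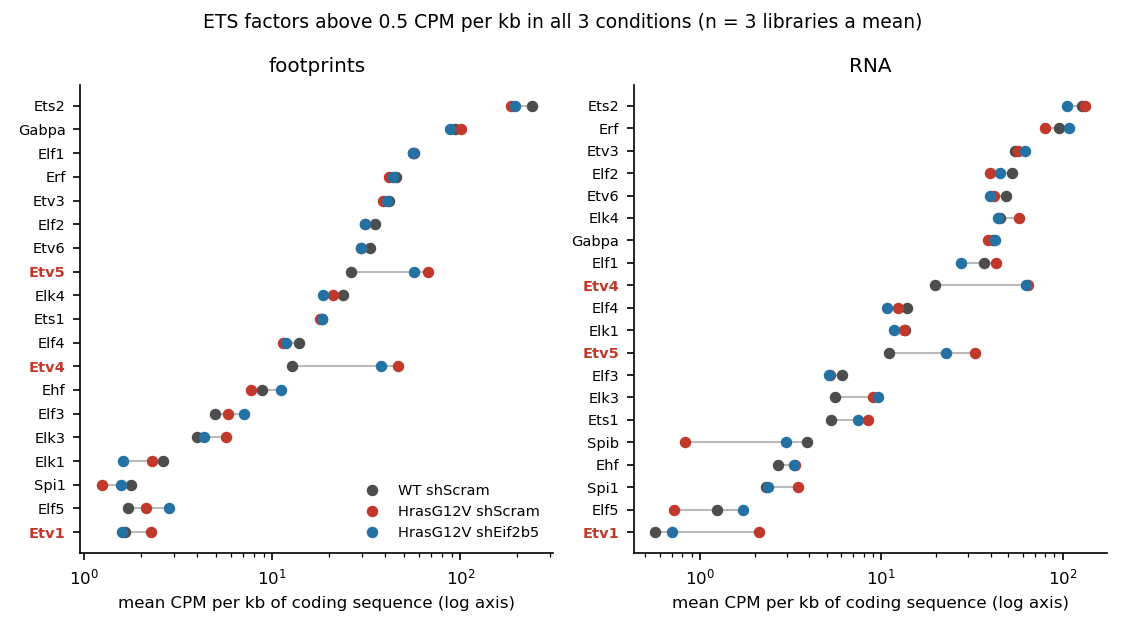
Mean CPM per kb of coding sequence (log axis, n = 3 libraries a mean) for ETS genes above 0.5 CPM per kb in all 3 conditions, with PEA3 factors in red bold type and genes ordered by the WT shScram level. Etv4 and Etv5 show wide gaps between WT (grey) and HrasG12V (red and blue), in footprints from 12.7 to 46.9 and from 26.2 to 67.3 CPM per kb with the scrambled shRNA.

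The other ETS factors gave no call between HrasG12V shScram and WT shScram, a count near the background. Of 24 listed, 23 had a row and 14 passed the filter in each kind, and 0 of 14 were called in footprints or in RNA by edgeR, where 1.7% and 7.7% of all tested genes were called, with medians of -0.14 and -0.01 against -0.01 and 0.01 over all tested genes (log2 fold change). Ets2, the most abundant ETS factor in these footprints and itself a target of ERK phosphorylation, had -0.37 ± 0.12 (edgeR adjusted p = 0.156), and Gabpa was the next. With shEif2b5 against the scrambled shRNA, Elf1 RNA fell by 0.65 on the log2 scale (adjusted p = 0.0252) and no other listed ETS factor was called. That call was lost in 4 of 6 fits that left out 1 library (HrasG12V shEif2b5 RNA 1 or 3, HrasG12V shScram RNA 1 or 3, highest edgeR adjusted p = 0.13). Leaving out HrasG12V shScram RNA libraries 1 and 3, 0 of 16 were called in that comparison. Without library 2 alone, Elk4 was called higher and Erf, an ETS repressor exported from the nucleus by ERK, lower in HrasG12V shScram RNA against WT.

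Lists of receptors and regulators upstream of the factors held at most 1 called gene each, where 1.7% of all genes were called in footprints and 7.7% in RNA. Of the receptor tyrosine kinases that signal through RAS, 0 of 9 tested were called in footprints or RNA for HrasG12V shScram against WT shScram, with medians of 0.06 and -0.07. In RNA, 1 was called higher and 2 lower without HrasG12V shScram library 2. Of the genes of the CIC repressor complex and the COP1 ligase machinery, 1 of 8 tested in footprints and 1 of 9 in RNA was called. Both calls were Trib2, a pseudokinase that serves as a COP1 adaptor. Trib2 footprints measured 21.1, 12.4 and 23.0 CPM in WT shScram, 42.5, 32.2 and 35.6 in HrasG12V shScram, and 36.1, 28.7 and 37.8 in HrasG12V shEif2b5, with both HrasG12V groups above WT. Its footprints rose 1.96-fold in HrasG12V shScram (edgeR adjusted p = 0.017) and 1.82-fold in HrasG12V shEif2b5 (adjusted p = 0.047, a call lost with upper-quartile factors). With 1 library left out, the first call was lost in 3 of 6 fits (without HrasG12V shScram footprint library 1 or 3 or WT footprint library 2, highest edgeR adjusted p = 0.123) and the second in 5 of 6, all but that without WT footprint library 3 (highest 0.185). Its RNA rose 1.99-fold in HrasG12V shScram (adjusted p = 0.0196), a call that was lost without HrasG12V shScram RNA libraries 1 and 3 and in 5 of 6 fits that left out 1 library, all but that without HrasG12V shScram RNA library 2 (highest adjusted p = 0.0859). Cic itself, the repressor, had -0.08 ± 0.15 in footprints (edgeR adjusted p = 0.875). Det1, a part of the COP1 ligase, was called lower in RNA with shEif2b5 against the scrambled shRNA (-0.90 ± 0.26, edgeR adjusted p = 0.0339), a call lost without any 1 of the shEif2b5 libraries and without HrasG12V shScram library 1 (highest adjusted p = 0.192).

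Some of the genes known to be repressed by CIC or induced by ERK were called higher beside Etv4 and Etv5. This list was chosen with earlier results of these data known, so its counts are given as a description. In footprints, 6 of 15 tested were called higher and 0 lower in HrasG12V shScram against WT shScram, where 1.23% of all genes were called higher, with a median of 0.50 against -0.01 over all genes. They were Dusp6, a phosphatase that inactivates ERK, Spry1, Spry2, Spry4 and Spred1, feedback inhibitors of the pathway, and Egr1, an immediate early factor. With 1 library left out, 4 to 5 were called. Dusp6, Spry2, Spry4 and Spred1 kept their calls in all 6 fits, Egr1 lost its call in 5 of 6 (all but that without HrasG12V shScram library 2, highest edgeR adjusted p = 0.25), and Spry1 in 3 of 6 (without HrasG12V shScram library 2 or 3 or WT library 2, highest 0.104). Dusp6 footprints measured 116, 117 and 127 CPM in WT shScram, 317, 305 and 396 in HrasG12V shScram, and 288, 302 and 281 in HrasG12V shEif2b5. The WT libraries lay far below both HrasG12V groups, and the shEif2b5 libraries lay just below those with the scrambled shRNA. Dusp6 rose 2.83-fold in HrasG12V shScram (edgeR adjusted p = 1.48e-06), and Spry4, at 3.34, 1.36 and 1.00 CPM in WT and 10.1 to 12.5 CPM in HrasG12V shScram, rose 6.15-fold (adjusted p = 0.000676). In RNA, 5 of 16 were called higher (the same genes without Spred1), and 5 of 16 without HrasG12V shScram RNA libraries 1 and 3, when Phlda1 was called and Spry4 was not. Each of these RNA calls was kept with any 1 library left out. Over all genes tested in RNA, 4.65% were called higher in HrasG12V shScram against WT. Without library 2, Phlda1 and Ccnd1 were called lower. Spred1 rose in footprints (1.11 ± 0.19, adjusted p = 0.00291) and had 0.15 ± 0.18 in RNA. With shEif2b5, 4 of 15 stayed called against WT in footprints (Dusp6, Spry1, Spry2 and Spry4), where 0.76% of all genes were called higher. In RNA, 3 of 16 stayed called (Dusp6, Spry1 and Spry2), where 0.225% of all genes were called higher. With 1 library left out those counts were 2 to 4 and 1 to 3. Dusp6 in both kinds and Spry4 footprints kept their calls in all 6 fits. Spry1 lost its call in footprints without HrasG12V shEif2b5 library 2 or WT library 2 (highest edgeR adjusted p = 0.0639) and in 5 of 6 RNA fits, all but that without WT library 1 (highest 0.0954). Spry2 lost its call in both kinds without HrasG12V shEif2b5 library 2 or 3 or WT library 2 (highest 0.146 in footprints and 0.0763 in RNA). The most abundant genes of the list that were not called in footprints, the cyclin gene Ccnd1 and Phlda1, had -0.41 and 0.02. For the comparison of the shRNAs, edgeR called 0 of all 11448 genes in footprints and 13% of all genes in RNA. Between the shRNAs, 0 of 15 were called in footprints and Dusp5 alone, an ERK phosphatase, was called higher in RNA (1.28, edgeR adjusted p = 0.0438), a call lost without HrasG12V shScram RNA libraries 1 and 3 and in 5 of 6 fits that left out 1 library, all but that without HrasG12V shScram library 2 (highest adjusted p = 0.177). Against WT in HrasG12V shEif2b5 RNA, 6 of 16 were called without those libraries and 5 of 16 without HrasG12V shScram RNA library 2. For translation efficiency no gene of this list was called, but without libraries 1 and 3 Spred1 was called higher and Phlda1 lower in HrasG12V shScram against WT.

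**Figure D5:**
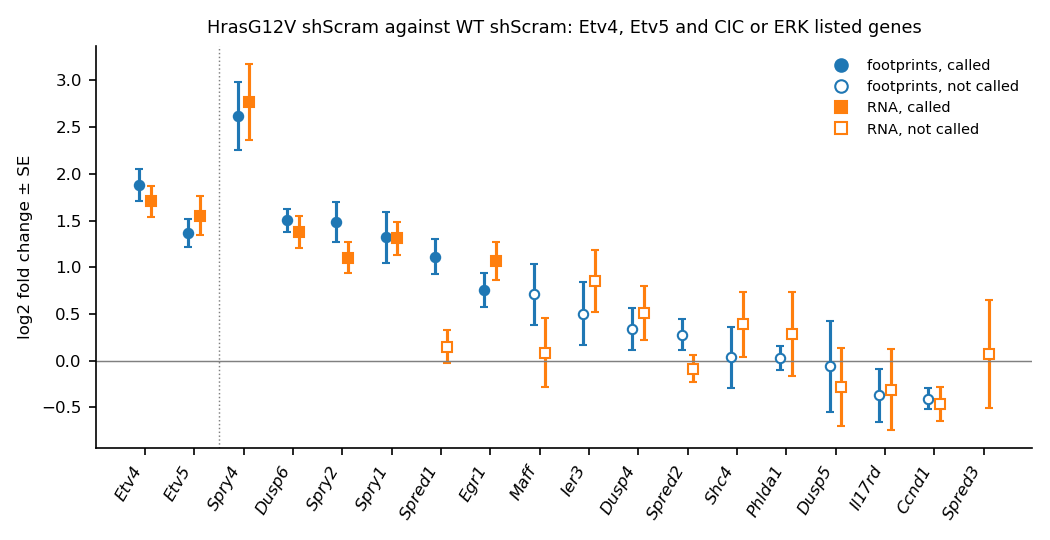
Log2 fold change with SE in HrasG12V shScram against WT shScram for Etv4, Etv5 (left of the dotted line) and the listed CIC-repressed or ERK-induced genes, ordered by the footprint value. Filled symbols passed an adjusted p of 0.05; Spry4, Dusp6, Spry2, Spry1 and Egr1 were called in both kinds and Spred1 in footprints only.

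The list of genes reported as PEA3 targets in other tissues did not record whether the factors raise or lower each gene. No gene of this list was called higher in footprints. There 0 of 11 tested were called higher and 2 lower in HrasG12V shScram against WT shScram, where 1.23% of all genes were called higher and 0.472% lower, with a median of -0.13. The chemokine receptor Cxcr4 fell from 108, 98.2 and 102 CPM in WT to 57.2, 59.4 and 68.0 (log2 -0.74 ± 0.12, edgeR adjusted p = 0.0028), and measured 52.6, 48.3 and 46.9 with shEif2b5, where it was called lower too. The hedgehog ligand Shh fell from 81.5, 104 and 96.7 CPM to 70.3, 57.3 and 62.8 (-0.57 ± 0.14, adjusted p = 0.0469). Cxcr4 kept its calls with each library left out, and Shh lost its call without any 1 of the HrasG12V shScram libraries or WT library 2 (highest edgeR adjusted p = 0.232). Shh is also a marker of hair placodes. The other 7 hair follicle markers summed to 584 to 638 footprint CPM in WT shScram, 476 to 528 in HrasG12V shScram and 469 to 562 in HrasG12V shEif2b5. Of these 7, Foxi3, a transcription factor of hair placodes, was called lower in HrasG12V shScram (-0.94 ± 0.15, edgeR adjusted p = 0.00259), a call kept with each library left out. Foxi3 footprints were called lower in HrasG12V shEif2b5 against WT shScram too (-0.72, edgeR adjusted p = 0.0283). That call was lost in 4 of 6 fits that left out 1 library (highest edgeR adjusted p = 0.138). In RNA, Shh was called lower in HrasG12V shScram against WT and higher with shEif2b5 against the scrambled shRNA, together with the intermediate filament gene Vim. With shEif2b5, the Shh call was lost without HrasG12V shEif2b5 library 3 (edgeR adjusted p = 0.0505), and the Vim call in 4 of 6 fits that left out 1 library (without HrasG12V shEif2b5 or HrasG12V shScram library 1 or 3, highest 0.15). The other 7 hair follicle markers summed to 946 to 962 RNA CPM in WT shScram, 607 to 820 in HrasG12V shScram and 946 to 1023 in HrasG12V shEif2b5. Between the shRNAs Lhx2 (0.61, edgeR adjusted p = 0.0269) and Lef1 (0.60, adjusted p = 0.0288), a pair of hair follicle transcription factors, were called higher with Shh. With 1 library left out, Lhx2 lost its call without HrasG12V shEif2b5 library 1 or 3 or HrasG12V shScram library 3 (highest edgeR adjusted p = 0.131), and Lef1 without library 1 or 3 of either group (highest 0.125). Leaving out HrasG12V shScram RNA libraries 1 and 3 together, Lef1 lost its call and Lhx2 kept it, with library 2 alone in its group. Foxi3, Lhx2 and Lef1 were named after their values had been seen, and the part of the hair follicle markers in the Shh differences was not tested. Neither RNA comparison called any gene of the PEA3 target list without HrasG12V shScram RNA libraries 1 and 3.

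The genes whose levels most resembled those of the members were found from log2(CPM + 1), centred within each library kind, as the smallest root mean square difference over the 18 libraries among 10585 genes. For both members the nearest was Dusp6, at 0.246 from Etv4 and 0.211 from Etv5, where the median gene lay at 0.836 and 0.681. After Dusp6, Etv4 was followed by the synaptic vesicle protein gene Sv2b (0.289), Etv5 (0.294), the NRF2 target Nqo1 (0.314) and the oxidase gene Duox1 (0.321). Etv5 was followed by the transmembrane protein gene Heg1 (0.241), the immunoglobulin family gene Emb (0.242), the matrix protein gene Hmcn1 (0.249) and the mTOR inhibitor gene Deptor (0.252), and Etv4 came 8th at 0.294. Since the genes were picked for their likeness to Etv4 and Etv5 over the same libraries, their calls follow from the choice and are given as a description. All of them were called higher in HrasG12V shScram than in WT shScram in both kinds, and none was called between the shRNAs in RNA. With 1 library left out, calls were lost for Duox1 and Heg1 footprints and for Sv2b RNA, all 3 without HrasG12V shScram library 1, Duox1 and Sv2b also without library 3, and Sv2b also without WT library 1 or 2. In footprints the fold was 3.98 for Nqo1 and 2.47 for Deptor. Likeness was not tested.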

How the data were processed

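The authors deposited 1 table of raw read counts per gene over coding sequence. Bowtie, TopHat2, HTSeq and mm10 are named in the submitters' processing notes, and versions and strand settings were not given in the sources used here. Each column was matched to a library by its name. Counts were tested with edgeR 4.0.16 (quasi-likelihood, robust) in R 4.3.3 after filterByExpr (minimum count 10, minimum total 15) and TMM scaling within a library kind, over the 9 libraries of that kind, or all 18 for translation efficiency. Benjamini-Hochberg adjusted p under 0.05, over all genes tested, made a call. Ratios of members (0.5 counts added) were tested by exact permutation in Python with SciPy 1.17.1. The tests were checked on simulated data. Gene models came from GENCODE M21 (mm10) and promoters from RefSeq.

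The members and lists were chosen with earlier results of these data known. Genes named were the members, the called and up to 2 of the most abundant uncalled genes of a list, the 5 nearest genes by likeness, Hras and Eif2b5; Cic was named after its values were seen. Alternatives were DESeq2 1.42.0 (its size factors, or its Wald test), upper-quartile factors, no filter, a filter at 10 CPM, leaving out the 20 most abundant genes, limma 3.58.1 voom, a fit of only the 2 conditions compared, a replicate block, other added counts, and left-out libraries. List counts under these were added after the data were seen. The labels name no separate animals or litters within a group, so the p-values reflect spread among libraries that may be technical.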

Additional observations from a re-analysis of the deposited data

How the results depend on the processing

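The calls of Etv4 and Etv5 in footprints against WT shScram, in both HrasG12V groups, and of Etv4 RNA in the same comparisons held under every alternative run and with each library left out. Without HrasG12V shScram RNA libraries 1 and 3, Etv5 RNA in HrasG12V shScram against WT had 1.25 and was no longer called. In the same fits Etv4 RNA between the shRNAs turned to 0.20, and Etv5 translation efficiency turned to 0.12 in HrasG12V shScram against WT and to -0.018 between the shRNAs. Etv5 RNA in HrasG12V shEif2b5 against WT gained a call with no filter (1.01), and with DESeq2, with 2 conditions fitted and without those libraries (1.02 each). In the other 6 of 10 alternatives, and with any 1 library left out, it gained none. The cause of these changes was not tested.

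The count of called genes moved more than the members did. Footprints between the shRNAs went from 0 to 1 with no filter, with DESeq2 and with the replicate block. Footprints in HrasG12V shEif2b5 against WT went from 111 to 216 with no filter, 229 with DESeq2, 59 with voom, 44 with 2 conditions and 184 with the block. In RNA, 2 conditions and the fit without those 2 libraries gave 389 and 47 in place of 854 (HrasG12V shScram against WT), 876 and 17 in place of 1444 (between the shRNAs), and 123 and 124 in place of 36 (HrasG12V shEif2b5 against WT), where no filter gave 72 and DESeq2 63. Translation efficiency in HrasG12V shScram against WT went from 126 to 263 with DESeq2, 66 with voom, 43 with 2 conditions and 8 without those libraries, and between the shRNAs from 228 to 441 with DESeq2 and 2 without those libraries.

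With 1 library left out in turn, the counts in the order HrasG12V shScram against WT, between the shRNAs and HrasG12V shEif2b5 against WT were 73 to 559, 0 to 31 and 37 to 407 in footprints, 189 to 2431, 197 to 3150 and 12 to 20 in RNA, and 11 to 693, 7 to 1350 and 0 to 18 for translation efficiency. Among the members, Etv5 RNA between the shRNAs ranged from -0.67 to -0.39, Etv4 RNA there from -0.12 to 0.091, Etv1 footprints in HrasG12V shEif2b5 against WT from -0.45 to 0.18, and Etv5 translation efficiency there from -0.14 to 0.23. The log2 ratio of Etv4 to Etv5 ranged from -0.17 to 0.017 in footprints between the shRNAs and from -0.091 to 0.31 in RNA of HrasG12V shScram against WT.

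Ratios to Etv1 were fragile. In RNA of HrasG12V shScram against WT, adding 2 counts turned the ratio of Etv4 to Etv1 to 0.27 and of Etv5 to Etv1 to 0.15, and left-out libraries spread them from -1.10 to 0.61 and from -1.20 to 0.30. Etv5 to Etv1 ranged from -0.28 to 1.68 in RNA of HrasG12V shEif2b5 against WT. Between kinds that ratio became 0.49 with 2 counts added and 0.27 without HrasG12V shScram RNA libraries 1 and 3, and ranged from -0.26 to 0.38 with 1 library left out. The ratio of Etv4 to Etv1 between kinds ranged from -1.82 to -1.30 under the alternatives and from -2.05 to -1.45 with 1 library left out.

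Between conditions, the correlation of deviations passed 0.1 in 2 of 9 same-numbered pairs of footprints and 2 of 9 of RNA. Unlike numbers spanned a like range, so this shows no pairing between conditions. The ranges were -0.132 to 0.258 (same) and -0.310 to 0.238 (unlike) in footprints, and -0.311 to 0.306 and -0.293 to 0.312 in RNA. Between footprints and RNA of a condition, 6 of 9 same-numbered pairs passed 0.1. All 9 of these were above 0 (0.015 to 0.287, against -0.263 to 0.0403 for unlike numbers), a hint from the data of pairing between kinds that the labels do not state. The main tests were run unpaired because no label pairs the libraries. The replicate block, for the ratio between kinds too (-1.82 for Etv4 to Etv5, exact permutation p = 0.00391), changed no call of a member.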
